A study of Mus musculus with 17 samples.

Results

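The genes described here are 10 components and readouts of Wnt signalling, taken by name from a gene table of mouse limb buds, out of 34682 genes in that table. They are the ligand genes Wnt5a, Wnt5b, Wnt11 and Wnt3, the secretion factor Wls, the secreted modulators Dkk1 and Sfrp2, and the pathway targets Axin2, Lef1 and Tcf7. All 10 were present in the count table and the FPKM table, and all 10 passed the filter on low counts, as did 17655 genes in all.

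Wnt proteins are lipid-modified signals that need the membrane protein Wls to leave the cell and act through Frizzled receptors with a co-receptor. In the canonical branch they stabilise beta-catenin, which works with DNA-binding factors of the TCF/LEF family to switch on targets such as Axin2, itself a brake on the pathway. In the limb bud, Wnt3 signals in the surface ectoderm and is needed for the apical ridge, the epithelial rim that drives outgrowth, while Wnt5a acts in the mesenchyme on cell polarity and elongation of the limb through a branch that does not use beta-catenin.

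PolyA RNA was sequenced from limb buds of E12.5 mouse embryos (a stage when digits form) of 6 genotypes, most of which carry a rearrangement at the locus of Sox9 and the potassium channel gene Kcnj2 on chromosome 11. The series asks how duplications and the loss of a boundary between chromatin domains change the expression of nearby genes. Dup-C (2 libraries) and Dup-L (2 libraries) are duplications, Dup-LΔBor (4 libraries) joins Dup-L with a deletion of the boundary, and ΔBor is that deletion in heterozygous (ΔBor het, 2 libraries) or homozygous embryos (ΔBor hom, 1 library). The wild type (WT) has 4 libraries, and no other allele or agent is named for any group. The labels give neither the zygosity of the duplications nor which limb was taken, and give no source embryo for a replicate, so that p-values cover the spread of these samples, part of which may be technical. The genes Wnt3, Axin2 and Tcf7 are also on chromosome 11, Lef1, Sfrp2 and Wls on chromosome 3, Wnt5a on 14, Wnt5b on 6, Wnt11 on 7 and Dkk1 on 19.

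Libraries held 34486256 to 53711742 counts, which gave between 166 and 673 counts for Dkk1, the lowest of the 10 genes, and between 13338 and 22517 for Wnt5a. Kcnj2, the channel gene of the rearranged locus, stood at 87.7 and 75.2 CPM (counts scaled to a common library size) in Dup-C and at 17.6 to 26.2 CPM in WT. Markers of limb mesenchyme were high in every library, with 1802 to 2232 CPM summed over 6 genes. The libraries also differed in Pitx1, a hindlimb regulator, which was under 5 CPM in Dup-L 1, Dup-L 2, WT 2 and WT 4 and at 39.9 CPM or more in the other 11. Column headers place Dup-LΔBor, WT 3 and WT 4 in one range of library numbers, called here the second batch, and the other 9 libraries in the first. In these pieces of whole tissue, fewer cells of a type and less RNA per cell cannot be told apart.

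Promoter sequences are shown for Dkk1, the gene with the widest range among libraries, and for Axin2, the most used readout of the canonical branch. They are RefSeq promoters on GRCm38.p6, from 250 bases before to 50 bases after the start, given 5′ to 3′ on the gene's strand, at chr19:30549447-30549746 (minus strand) for Dkk1 and chr11:108920099-108920398 (plus strand) for Axin2. Capitals mark the TCF/LEF core letters CTTTGA or CTTTGT, searched on both strands, so that TCAAAG in capitals is CTTTGA on the other strand.
Dkk1: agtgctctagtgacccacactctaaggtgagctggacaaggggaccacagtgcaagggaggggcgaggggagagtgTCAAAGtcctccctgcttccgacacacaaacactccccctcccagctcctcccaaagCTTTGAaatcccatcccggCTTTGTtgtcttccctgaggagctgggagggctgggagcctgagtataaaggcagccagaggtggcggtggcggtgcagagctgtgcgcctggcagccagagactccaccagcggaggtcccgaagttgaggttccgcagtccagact
Axin2: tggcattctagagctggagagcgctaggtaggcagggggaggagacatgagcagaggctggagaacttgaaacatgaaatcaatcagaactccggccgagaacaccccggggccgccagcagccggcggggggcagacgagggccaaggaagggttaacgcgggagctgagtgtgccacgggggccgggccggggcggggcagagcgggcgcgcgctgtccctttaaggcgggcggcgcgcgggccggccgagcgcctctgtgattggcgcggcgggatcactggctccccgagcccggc
The Dkk1 window held 3 matches, which begin 174, 117 and 98 bases before the start, and the Axin2 window held 0. RefSeq entries matched 9 of the 10 genes, all but Wnt5a, with 16 promoters. A match was present in 5 of these 16 promoters, or 31.2%, and in 31.2% of all 32851 promoters in the table. A match describes letters only, and its absence says only that these letters are not in this window.

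Levels of different genes are set side by side in FPKM, which is per gene length as the authors took it. Those lengths were not given in the sources used here and differ from the longest annotated transcripts. Lef1 and Wnt11 have similar ones, of 3656 and 3451 bases. Yet in Dup-C 1 Lef1 had 54.3 CPM and 5.40 FPKM, and Wnt11 44.4 CPM and 12.25 FPKM. The order below thus depends on the authors' lengths. Over the 15 libraries Wnt5a was highest, with a median of 79.9 FPKM (71.8 to 86.7), and it made up 71.8% to 81.5% of the summed FPKM of the 4 ligands. Sfrp2 (56.1 FPKM) and Wls (48.3 FPKM) followed, then Axin2 (22.4 FPKM) and Wnt11 (13.6 FPKM). The lowest medians were those of Wnt5b (7.22 FPKM), Tcf7 (5.32 FPKM), Wnt3 (5.15 FPKM), Lef1 (5.10 FPKM) and Dkk1 (2.91 FPKM). Among neighbours in this order, the ranges of Wls and Axin2 did not overlap, nor did those of Axin2 and Wnt11. All other neighbours had overlapping ranges, and Tcf7 was above Wnt3 in only 8 of 15 libraries.

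**Figure D1:**
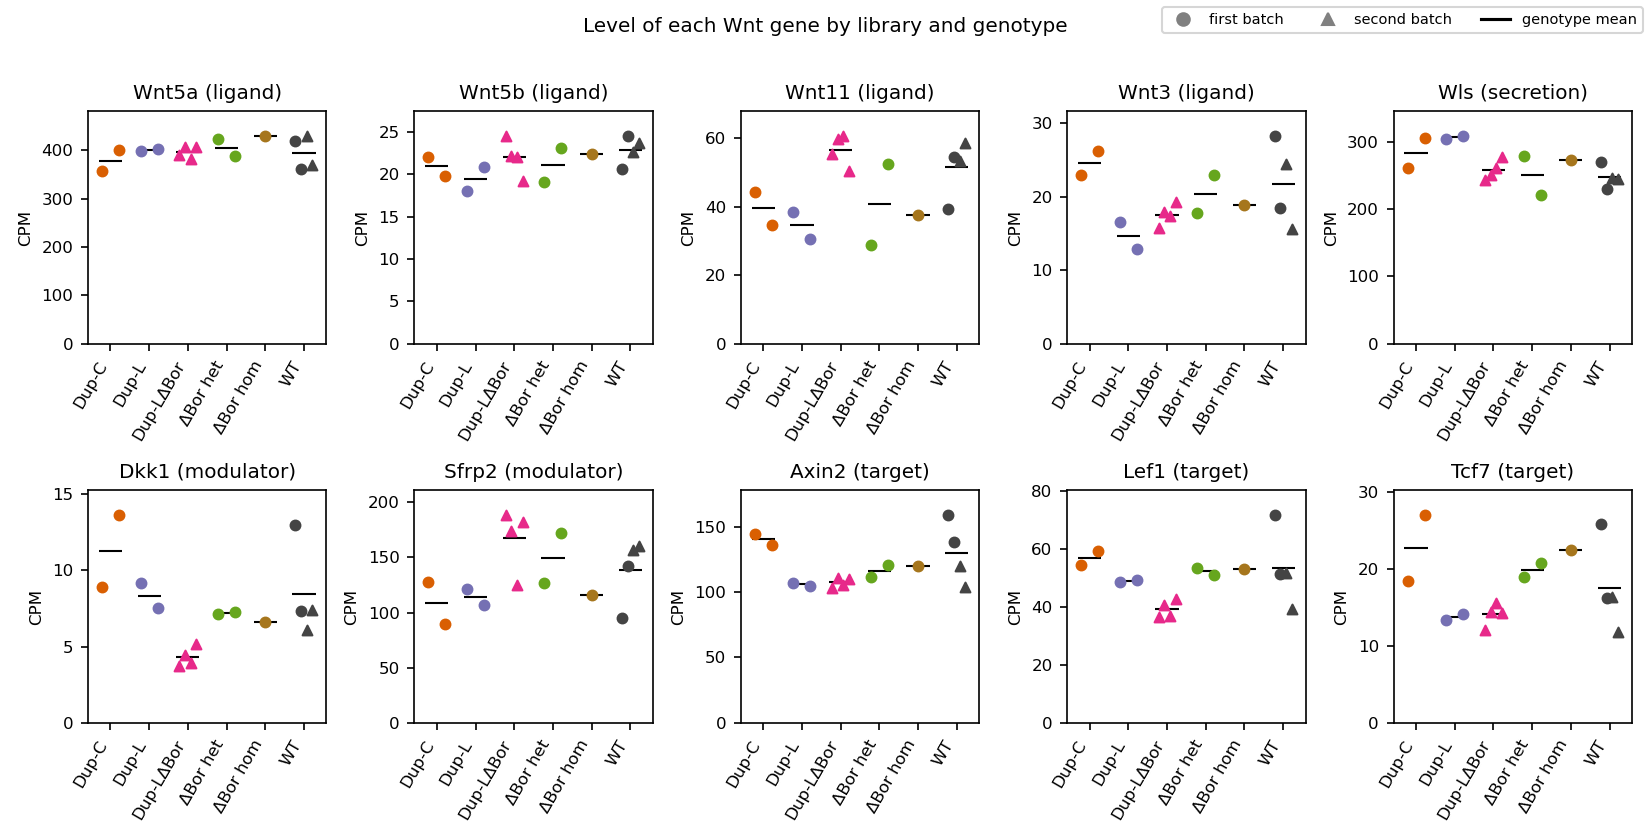
Level of each gene in CPM (y axis, from 0) in every library, by genotype (x axis, WT at the right); points are libraries, circles the first and triangles the second batch, and bars are genotype means. Dkk1 was lowest in the 4 Dup-LΔBor libraries (3.69 to 5.17 CPM), and WT 1 was the highest WT library for Wnt3, Dkk1, Axin2, Lef1 and Tcf7.

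The ligand Wnt5a was the steadiest of the 10 genes. Its level was 357 and 399.5 CPM in Dup-C, 399 and 403 CPM in Dup-L, and 389, 407, 383 and 406 CPM in Dup-LΔBor R2 to R5. It was 423 and 388 CPM in ΔBor het and 429 CPM in ΔBor hom, against 418, 360.3, 429 and 370.4 CPM in WT 1 to 4. The highest library was 1.20 times the lowest, and log2 fold changes against WT lay between -0.06 in Dup-C and 0.12 in ΔBor hom, with adjusted p-values of 0.552 or more. Wnt5b, a close relative of Wnt5a known for a role in cartilage, ranged from 18.0 CPM in Dup-L 1 to 24.5 CPM in WT 2. The span of its gene, introns included, overlaps that of Fbxl14 on the opposite strand. Whether their exons overlap was not tested, and the strand setting of the counting was not given in the sources used here. Reads of Fbxl14 may thus be part of the Wnt5b counts.

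Wnt11, a ligand mostly tied to branches without beta-catenin, varied more. Its level was 44.4 and 34.7 CPM in Dup-C, 38.4 and 30.6 CPM in Dup-L, and 55.4, 59.7, 60.5 and 50.3 CPM in Dup-LΔBor. The ΔBor het libraries stood at 28.9 and 52.4 CPM and ΔBor hom at 37.5 CPM, against 39.3, 54.5, 53.2 and 58.6 CPM in WT. Dup-L and ΔBor hom lay below the lowest WT library, as for 24.6% and 29.4% of all genes, Dup-LΔBor overlapped WT, and the ΔBor het pair lay far apart.

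Wnt3, the canonical ligand of the limb ectoderm, had 23.0 and 26.2 CPM in Dup-C, 16.5 and 12.9 CPM in Dup-L, and 15.8, 17.9, 17.4 and 19.2 CPM in Dup-LΔBor. ΔBor het had 17.8 and 23.0 CPM and ΔBor hom 18.8 CPM, against 28.3, 18.5, 24.5 and 15.6 CPM in WT. The WT libraries spanned nearly the whole range, and every mutant group overlapped them. WT 2 and WT 4, which were low in Pitx1, were the lower pair of WT for Wnt3, at 18.5 and 15.6 CPM.

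Wls, the carrier of Wnt proteins to the cell surface, had 261 and 305 CPM in Dup-C, 304 and 308 CPM in Dup-L, and 243, 250.4, 261 and 278 CPM in Dup-LΔBor. It had 279 and 221 CPM in ΔBor het and 273 CPM in ΔBor hom, against 269, 229, 246 and 245 CPM in WT. The Dup-L pair and the single ΔBor hom library lay above all 4 WT libraries, as for 26.4% and 29.9% of all genes in those comparisons.

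Dkk1, a secreted inhibitor that binds the Lrp5 and Lrp6 co-receptors and is itself a target of the canonical branch, had the widest spread, with a 3.69-fold range. It stood at 8.91 and 13.6 CPM in Dup-C, 9.18 and 7.50 CPM in Dup-L, and 3.69, 4.43, 3.93 and 5.17 CPM in Dup-LΔBor R2 to R5. The level was 7.12 and 7.29 CPM in ΔBor het and 6.61 CPM in ΔBor hom, against 13.0, 7.32, 6.07 and 7.39 CPM in WT 1 to 4. All 4 Dup-LΔBor libraries lay below every other library, and Dup-C 2 and WT 1 lay above all others.

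Sfrp2, a secreted protein that binds Wnts, was highest in Dup-LΔBor R2, at 188 CPM. The other Dup-LΔBor libraries had 174, 125.4 and 182 CPM, Dup-C had 128 and 89.7 CPM, Dup-L 121 and 107 CPM, ΔBor het 126 and 173 CPM and ΔBor hom 116 CPM, against 94.7, 143, 157 and 161 CPM in WT. No group was separate from WT.

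Among the targets, Axin2 stood at 144 and 136 CPM in Dup-C, 107 and 105 CPM in Dup-L, and 103, 111, 105 and 110.2 CPM in Dup-LΔBor. It was at 111 and 121 CPM in ΔBor het and 120.0 CPM in ΔBor hom, against 159, 138, 120.2 and 104 CPM in WT. The 6 Dup-L and Dup-LΔBor libraries sat near WT 4, below the other 3 WT libraries.

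Lef1, a TCF/LEF factor whose own gene responds to canonical Wnt signals, had 54.3 and 59.2 CPM in Dup-C, 48.6 and 49.3 CPM in Dup-L, and 36.3, 40.7, 36.7 and 42.9 CPM in Dup-LΔBor. It had 53.4 and 51.0 CPM in ΔBor het and 52.9 CPM in ΔBor hom, against 71.7, 51.3, 51.8 and 39.3 CPM in WT. WT 4 lay within the Dup-LΔBor range. Tcf7, the other TCF/LEF gene of the set, ranged from 11.9 CPM in WT 4 to 27.0 CPM in Dup-C 2, with 12.1 to 15.6 CPM in Dup-LΔBor, 13.4 and 14.1 CPM in Dup-L, and 25.8, 16.3, 16.3 and 11.9 CPM in WT. In WT 4, in which Pitx1 was low and which belongs to the second batch, all 3 targets were at their lowest WT level.

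Whether any of the 10 genes differed among the 6 genotypes was asked first, with edgeR's quasi-likelihood test over all 15 libraries and Benjamini-Hochberg adjustment over all genes tested. Dkk1 alone passed an adjusted p of 0.05 (adjusted p = 0.00832), where 43.3% of all genes passed. With the batch as a term Dkk1 no longer passed (adjusted p = 0.113) and Axin2 did (adjusted p = 0.0407), and with offsets for GC content and length Dkk1 (0.0192), Wnt5b (0.0123), Axin2 (0.0369) and Wls (0.0386) passed. Over all genes, 1276 of 17655 passed with the batch as a term and 5101 of 17655 with the offsets. Without these terms, Axin2, Lef1, Tcf7 and Wnt11 had unadjusted p-values under 0.05 and adjusted p-values between 0.0553 and 0.0807.

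**Figure D2:**
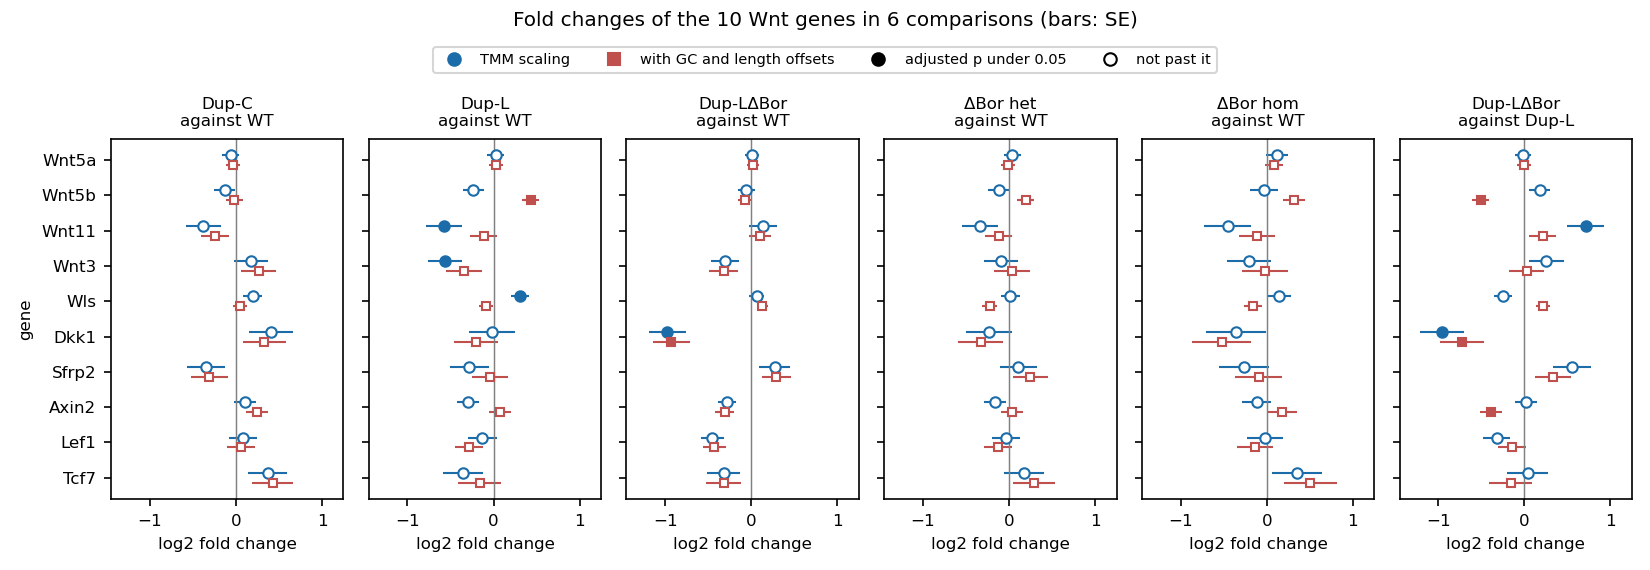
Log2 fold change of each gene (x axis, bars 1 SE) in 6 comparisons, from edgeR's quasi-likelihood fit with TMM scaling (circles) and with offsets for GC content and length (squares); filled symbols have an adjusted p under 0.05. Dkk1 in Dup-LΔBor stood below WT on both scales (-0.98 and -0.93), while Wls in Dup-L stood above WT on one and below it on the other (0.31 and -0.086).

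In Dup-LΔBor against WT, Dkk1 was the gene that changed. It fell to 4.31 ± 0.653 CPM in Dup-LΔBor, against 8.44 ± 3.09 CPM in WT (SD, n = 4 each), at a log2 fold change of -0.98 (SE of 0.22, adjusted p = 0.0300 by edgeR's quasi-likelihood test). It was 1 of 10 genes past the threshold, where 3.85% of all genes tested passed, and its groups did not overlap, as for 5.42% of all genes in that direction. The same comparison within the second batch set 3.69 to 5.17 CPM in Dup-LΔBor against 6.07 and 7.39 CPM in WT 3 and 4, a log2 difference of -0.65 (adjusted p = 0.159), and with the batch as a term over all libraries it was -0.64 (adjusted p = 0.224). Dkk1 also missed the threshold without Dup-LΔBor R2, R3 or R4 (adjusted p = 0.0805, 0.0812 and 0.0771) or WT 2 (adjusted p = 0.0541), at log2 fold changes of -0.91, -0.99, -0.93 and -1.04. Over all genes, 157 of 17582, 81 of 17621, 174 of 17587 and 180 of 17590 passed in these fits.

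The targets in Dup-LΔBor lay on the same side of WT as Dkk1 without passing. Lef1 averaged 39.2 ± 3.16 CPM in Dup-LΔBor and 53.5 ± 13.4 CPM in WT (SD, n = 4 each), or -0.45 as a log2 fold change (SE 0.13, adjusted p = 0.0679). Axin2 averaged 107 ± 3.89 CPM in Dup-LΔBor and 130.2 ± 23.7 CPM in WT (SD, n = 4 each; log2 fold change -0.28, SE 0.10, adjusted p = 0.120), and Tcf7 was at -0.32 (SE 0.19, adjusted p = 0.321). Without WT 4, Lef1 (-0.58, adjusted p = 0.0121) and Axin2 (-0.38, adjusted p = 0.0228) passed, where 1516 of 17593 genes tested did. Within the second batch Lef1 was at -0.22 (adjusted p = 0.420), Axin2 at -0.062 (adjusted p = 0.798) and Tcf7 at -0.0041 (adjusted p = 0.995). The median log2 fold change of the 10 genes was -0.17, beside -0.01 over all genes tested.

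Cell type markers differed beside Dkk1 as follows. Summed over 7 apical ridge markers, Dup-LΔBor R2 to R5 had 36.0, 38.7, 37.7 and 32.0 CPM, against 71.2, 51.9, 45.3 and 37.4 CPM in WT 1 to 4, so that only WT 4 lay in the Dup-LΔBor range. En1, a gene of ventral ectoderm and ridge, fell (1 of 7 markers), the list's median log2 fold change was -0.53, and Fgf8, the defining ridge signal, was present in every library, at 2.41 to 5.64 CPM in Dup-LΔBor against 2.171 to 5.91 CPM in WT. Surface ectoderm markers summed to 668 to 834 CPM in Dup-LΔBor and 735 to 1139 CPM in WT, with 1 of 10 past the threshold. Nerve and glia markers summed to 81.4 to 96.9 CPM in Dup-LΔBor and 103 to 135 CPM in WT, with 4 of 6 markers lower, where 3.85% of all genes passed in either direction. The part of these cell types in the Dkk1 difference was not tested.

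**Figure D3:**
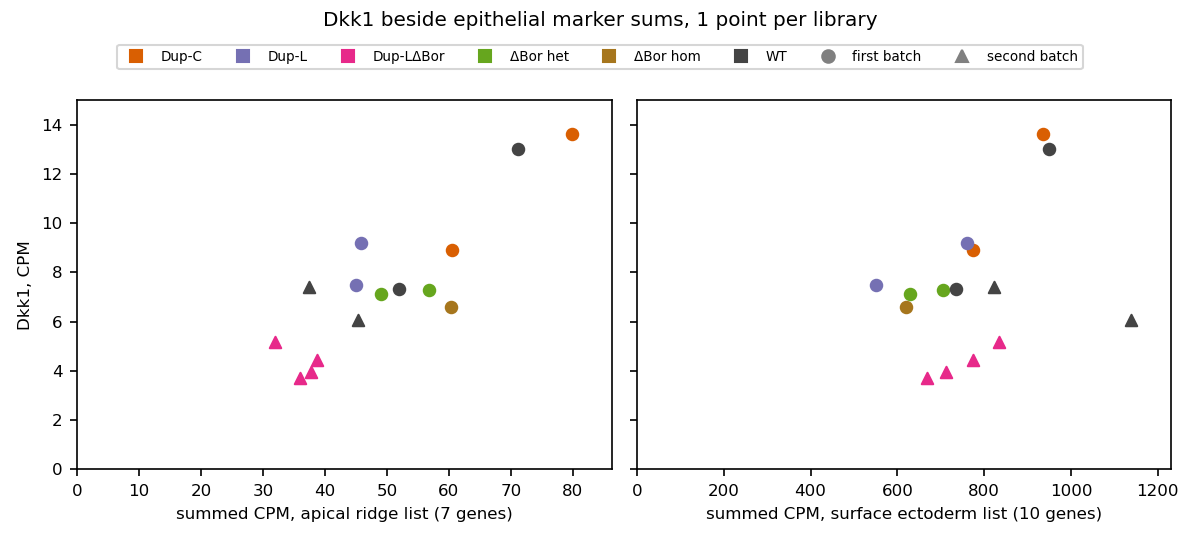
Dkk1 level (y axis, CPM) against the summed CPM of 7 apical ridge markers (left) and of 10 surface ectoderm markers (right), 1 point per library, with colours for genotypes and shapes for batches. The Dup-LΔBor libraries sit at 32.0 to 38.7 CPM of ridge markers, where WT 4 (37.4 CPM) has more Dkk1 (7.39 CPM), and Dup-C 2 and WT 1 are highest in Dkk1 and in ridge markers.

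In Dup-L against WT, Wnt11 and Wnt3 fell and Wls rose with TMM scaling, of which Wls changed sign with offsets for GC content and length. Wnt11 averaged 34.5 ± 5.51 CPM in Dup-L (SD, n = 2) and 51.4 ± 8.37 CPM in WT (SD, n = 4), or -0.57 as a log2 fold change (SE 0.21, adjusted p = 0.0498). Wnt3 averaged 14.7 ± 2.56 CPM in the Dup-L pair and 21.7 ± 5.73 CPM in WT (log2 fold change -0.56, SE 0.20, adjusted p = 0.0451), and Wls 306 ± 2.66 CPM in the Dup-L pair and 247 ± 16.4 CPM in WT (0.31, SE 0.11, adjusted p = 0.0401). These 3 of 10 genes compare with 32.4% of all genes past the threshold in that comparison, so their share was near the background.

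The Dup-L values moved with the batch term and with the offsets for GC content and length. With the batch as a term Axin2 passed (-0.49, adjusted p = 0.00711) beside Wnt3 (-0.67, adjusted p = 0.0493), while Wnt11 (-0.44, adjusted p = 0.194) and Wls (0.30, adjusted p = 0.0933) did not. With the offsets Wnt11 was at -0.11 (adjusted p = 0.697), Wnt3 at -0.34 (adjusted p = 0.324) and Wls at -0.086 (adjusted p = 0.549), while Wnt5b changed sides to 0.43 (adjusted p = 0.0236) where TMM scaling gave -0.24 (adjusted p = 0.158). The share of all genes past the threshold was then 7.27%. Without WT 3, 0 of the 10 genes passed, where 4728 of 17603 genes tested did. Without WT 2, only Wnt3 passed (-0.62, adjusted p = 0.0365), where 5799 of 17590 genes tested did. Leaving out Dup-L 1 or Dup-L 2 leaves 1 library in that group, so no call is given for those fits. Pitx1 was at 0.518 and 0.677 CPM in the Dup-L pair, with WT 1 to 4 at 59.8, 1.83, 70.1 and 1.83 CPM, and with Pitx1 as a covariate Wnt3 was at -0.041 (adjusted p = 0.921). The Pitx1 covariate and Dup-L can hardly be told apart, since only WT 2 and WT 4 are also low. Cell type markers differed in the same comparison with TMM scaling, where 32.4% of all genes passed in either direction. Of 10 surface ectoderm markers 4 fell (median log2 fold change -0.33), with sums of 759.6 and 551 CPM in Dup-L against 735 to 1139 CPM in WT. Of 4 limb-type genes, Pitx1 among them, 2 fell (median log2 fold change -1.26). Of 6 markers each, nerve and glia had 4 lower and 1 higher, endothelium 3 lower and 1 higher, and limb mesenchyme 2 lower and 1 higher. The part of these cell types in the Wnt3, Wnt11 and Wls values was not tested.

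Adding the boundary deletion to the duplication was asked by setting Dup-LΔBor against Dup-L directly. These groups also differed in Pitx1, at 40.5 to 73.9 CPM in Dup-LΔBor against 0.518 and 0.677 CPM in Dup-L. The boundary deletion, the batch and what goes with Pitx1 cannot be told apart in this comparison. Wnt11 rose to 56.5 ± 4.69 CPM in Dup-LΔBor (SD, n = 4), against 34.5 ± 5.51 CPM in Dup-L (SD, n = 2), or 0.71 as a log2 fold change (SE 0.21, adjusted p = 0.0143). Dkk1 fell to 4.31 ± 0.653 CPM in Dup-LΔBor, against 8.34 ± 1.19 CPM in Dup-L, or -0.96 as a log2 fold change (SE 0.26, adjusted p = 0.00799). Neither pair of groups overlapped, as for 32.3% of all genes higher and 32.4% lower. The groups did not overlap for Sfrp2 (higher), Lef1 and Wls (both lower) either, which did not pass (adjusted p = 0.0609, 0.120 and 0.0767). Wnt11 and Dkk1, 2 of 10 genes, stand beside 43.6% of all genes past the threshold. The groups are from different batches, and with the batch as a term, which then rests on the WT libraries, Dkk1 was at -0.36 (adjusted p = 0.506) and Wnt11 at 0.46 (adjusted p = 0.336), while Axin2 passed as higher in Dup-LΔBor (0.43, adjusted p = 0.0449). With the GC and length offsets, under which 28.1% of all genes passed, Dkk1 was at -0.72 (adjusted p = 0.0468) and Wnt11 at 0.22 (adjusted p = 0.332), while Axin2 (-0.38, adjusted p = 0.0375) and Wnt5b (-0.51, adjusted p = 0.00249) passed there as lower, and not with TMM scaling alone (0.02 and 0.18). The sign of Axin2 thus turned between the batch term and the offsets. Without Dup-L 2 Wnt11 was at 0.54, and without Dup-L 1 Dkk1 was at -0.80, in fits that leave 1 library in Dup-L.

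In Dup-C against WT, 0 of the 10 genes passed edgeR's test, where 0.00566% of all genes did, and 0 had an unadjusted p under 0.05, against 16.6% of all genes. DESeq2 called 0 too, but it gave an adjusted p to only 1734 genes in that comparison. A gene left out of those could not be called. The values furthest from 0 were those of Dkk1 (0.41, SE 0.26, adjusted p = 0.409), Wnt11 (-0.38, SE 0.21, adjusted p = 0.364) and Tcf7 (0.37, SE 0.23, adjusted p = 0.406). Without WT 1, the WT library highest in the targets, Dkk1 (0.70, adjusted p = 0.0374) and Tcf7 (0.62, adjusted p = 0.0360) passed. In that fit 1640 of 17593 genes tested passed, so the change was not limited to these genes.

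In ΔBor het against WT 0 of the 10 genes passed (4.03% of all genes), and likewise 0 in ΔBor hom against WT (1.27% of all genes), with 0 at an unadjusted p under 0.05 in either (25.9% and 26.6% of all genes) and 0 by DESeq2. Wnt11 had the value furthest from 0 in both, at -0.34 (SE 0.21, adjusted p = 0.324) in ΔBor het and -0.45 (SE 0.27, adjusted p = 0.301) in ΔBor hom, whose single library takes its spread from the other groups. Without ΔBor het 2, which left a single library in that group, Wnt11 was at -0.83 in ΔBor het. All comparisons with WT share the 4 WT libraries.

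Ligands and targets were then set side by side in each library, as the mean log2(FPKM + 0.1) of the 4 ligands and of the 3 targets. Targets minus ligands was -0.53 and -0.30 in Dup-C, -0.68 and -0.55 in Dup-L, and -1.09, -0.98, -0.98 and -0.87 in Dup-LΔBor R2 to R5. It was -0.42 and -0.70 in ΔBor het and -0.48 in ΔBor hom, against -0.26, -0.68, -0.86 and -1.05 in WT 1 to 4. Targets thus lay lowest relative to ligands in Dup-LΔBor and in the second-batch WT libraries, and every first-batch library was above every second-batch one. On values adjusted for GC content and length that order did not hold throughout, since Dup-L 1 (-0.31, first batch) was below WT 3 (-0.29, second batch). The Dup-LΔBor mean was -0.98 ± 0.09 and the WT mean -0.71 ± 0.34 (SD, n = 4 each), and the WT values covered all but 1 of the Dup-LΔBor values. These are differences of levels and carry no test.

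**Figure D4:**
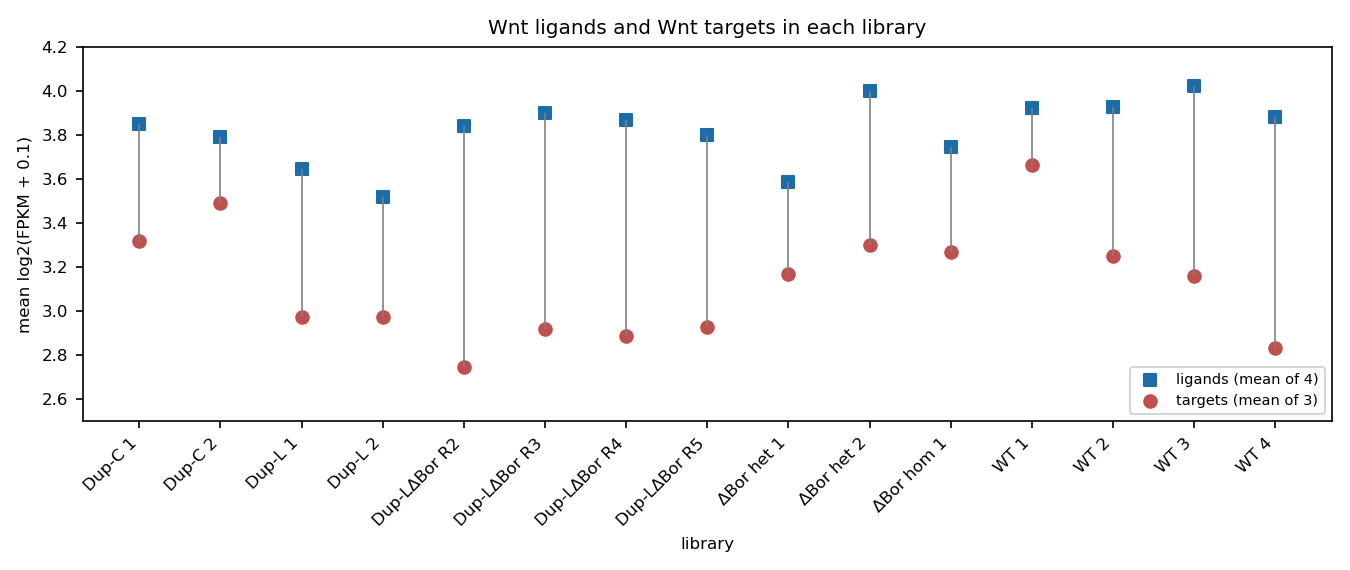
Mean log2(FPKM + 0.1) of the 4 ligands (squares) and of the 3 targets (circles) in each library (x axis, WT at the right), joined by a line whose length is their difference. The ligand means lie between 3.52 and 4.02, while the target means run from 2.75 in Dup-LΔBor R2 to 3.66 in WT 1.

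Among the 4 ligands set against the targets, the one that moved with them over libraries was Wnt3. Over 15 libraries, log2 CPM of Wnt3 and Axin2 had Pearson's r = 0.81 (permutation p = 2.0e-04, adjusted 0.0024 over 12 relations) and Spearman's rho = 0.87 (permutation p = 6.0e-05, adjusted 7.2e-04). For Wnt3 and Tcf7 r was 0.78 (permutation p = 6.4e-04, adjusted 0.00384) and rho 0.81 (permutation p = 5.1e-04, adjusted 0.00306), and for Wnt3 and Lef1 r was 0.68 (permutation p = 0.00572, adjusted 0.0229) and rho 0.74 (permutation p = 0.00233, adjusted 0.00932). Without the 2 libraries furthest from the median of Wnt3, Dup-L 2 and WT 1, r was 0.74, 0.75 and 0.72 for Axin2, Tcf7 and Lef1. In the first batch (n = 9) it was 0.84, 0.84 and 0.77, and in the second (n = 6) 0.97, 0.81 and 0.93. As deviations from genotype means r was 0.68, 0.77 and 0.78, and without the 4 libraries low in Pitx1 (n = 11) it was 0.88, 0.74 and 0.84, so the libraries of a genotype also differed along this line. Other Wnt ligand genes were not set against the targets, so whether the relation is particular to Wnt3 was not tested. Wnt7b, like Wnt3, was high in WT 1 and Dup-C 2 (83.0 and 77.8 CPM) and lowest in Dup-L 2 (35.4 CPM). Wnt16 went the other way, at 1.80, 1.37 and 3.71 CPM in the same libraries.

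**Figure D5:**
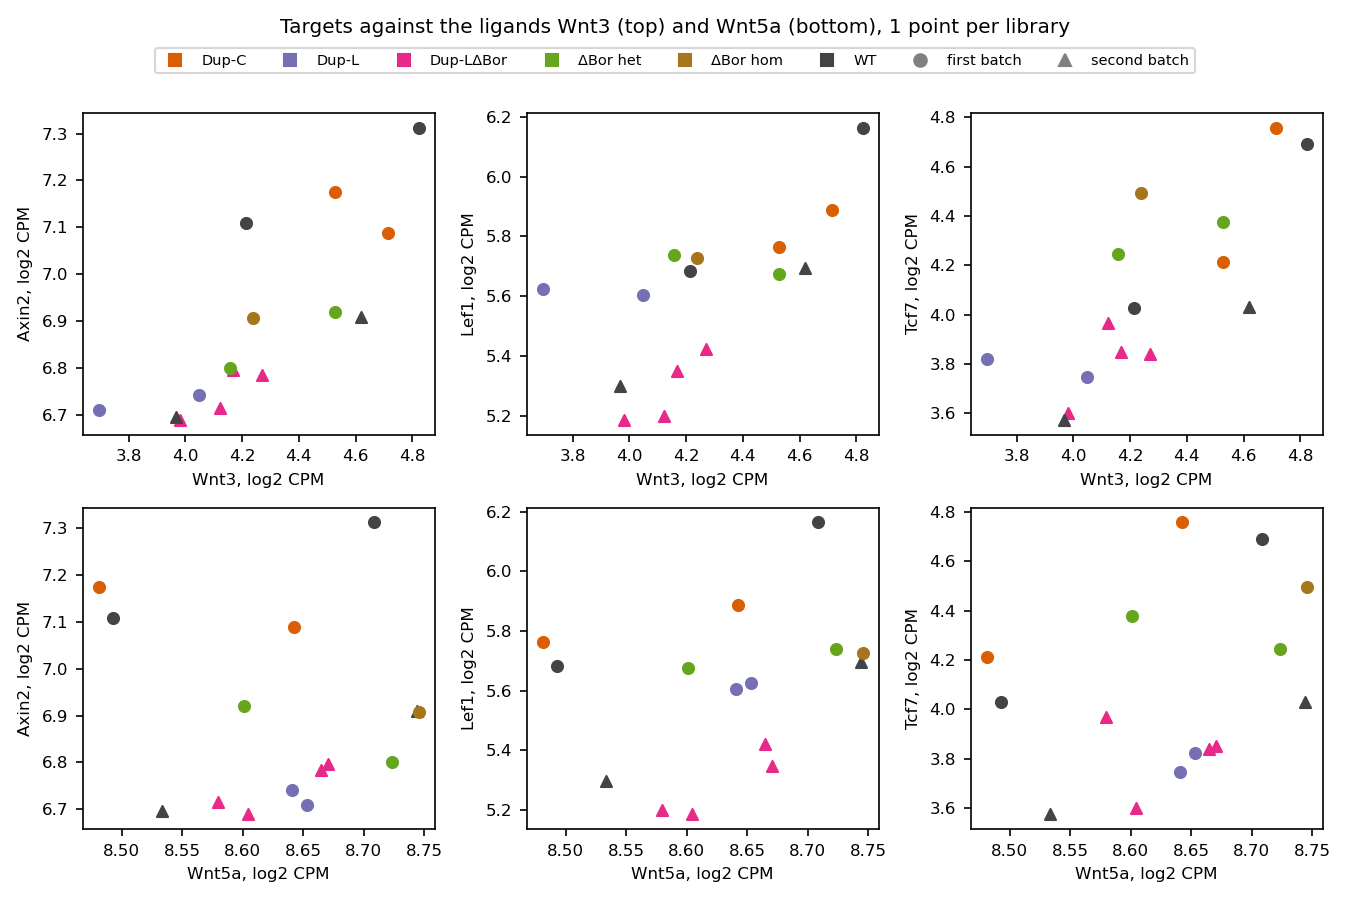
Log2 CPM of Axin2, Lef1 and Tcf7 (y axes, left to right) against Wnt3 (top) and Wnt5a (bottom), 1 point per library, with colours for genotypes and shapes for batches. Points rise with Wnt3 (r = 0.81, 0.68 and 0.78), while for Wnt5a r is -0.10, 0.29 and 0.30.

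Wnt5a, the most abundant ligand, had r = -0.10 with Axin2 (rho = 0.06), 0.29 with Lef1 (rho = 0.31) and 0.30 with Tcf7 (rho = 0.34), with adjusted permutation p-values of 0.381 or more. Within the second batch alone (n = 6) these were 0.93, 0.83 and 0.68, where the first batch (n = 9) gave -0.33, 0.27 and 0.32, and the difference between batches was not tested. Wnt11 had r = -0.62 with Lef1 (permutation p = 0.0128, adjusted 0.0385) and rho = -0.68 (permutation p = 0.00685, adjusted 0.0205), and r = -0.74 without Dup-L 2 and ΔBor het 1. In the first batch it was -0.07 (n = 9) and in the second -0.56 (n = 6), so this relation did not hold within the first batch. The other 5 relations, those of Wnt5b with the 3 targets and of Wnt11 with Axin2 and Tcf7, had r between -0.45 and 0.03 and adjusted permutation p-values of 0.217 or more. On values adjusted for GC content and length, given with no test, Wnt11 had r = -0.73 with Axin2 and -0.69 with Tcf7, where the unadjusted r was -0.17 and -0.45, and -0.65 with Lef1. Wnt5b with Axin2 moved to 0.31 (unadjusted 0.03), while Wnt3 had 0.70, 0.88 and 0.83 with Axin2, Lef1 and Tcf7.

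Over all 17654 other genes tested, the closest to Axin2 across the 15 libraries, as a description by Pearson's r of log2 CPM, were Tmsb10, Bak1, Col18a1, AK218261_gene and Incenp, each at r = 0.92. In that order Lef1 stood at rank 126 (r = 0.82), Wnt3 at 138, Tcf7 at 302 and Dkk1 at 683 (r = 0.68), while Sfrp2 was at the other end with r = -0.47. The 4 libraries highest in Axin2 were both of Dup-C, WT 1 and WT 2. Dup-C 1, Dup-C 2 and WT 1 had the 3 highest apical ridge marker sums, at 60.5, 79.9 and 71.2 CPM. ΔBor hom was almost level with Dup-C 1, at 60.4 CPM, with Axin2 at 120.0 CPM. ΔBor het 2 (56.7 CPM, Axin2 at 121 CPM) stood above WT 2 (51.9 CPM, Axin2 at 138 CPM) in ridge markers. The part of the ridge in these relations was not tested.

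The wider Wnt pathway was read from lists of 100 genes in all, ligands, receptors, modulators, transducers, targets and planar polarity genes, of which 96 were tested. In Dup-LΔBor against WT 1 rose and 3 fell (4.17% of those tested, near the 3.85% of all genes). Besides Dkk1 these were Rspo1, a secreted enhancer of Wnt signals, which was at 2.67, 3.82, 2.89 and 3.18 CPM in Dup-LΔBor against 2.01, 1.94, 2.19 and 1.75 CPM in WT (log2 fold change 0.67, SE 0.16, adjusted p = 0.0420), and Wif1, a secreted Wnt inhibitor (-0.42, SE 0.08, adjusted p = 0.0176). Myc, a growth regulator listed among the targets, was at 10.9, 9.50, 8.61 and 9.15 CPM in Dup-LΔBor against 13.0, 15.2, 16.2 and 14.5 CPM in WT (-0.62, SE 0.14, adjusted p = 0.0280). Of the ligand list 0 of 16 genes tested passed there, and of the receptor list 0 of 16.

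In Dup-L against WT 4 of the 96 genes rose and 32 fell (37.5%, beside 32.4% of all genes), which became 4 higher and 3 lower with the GC and length offsets (beside 7.27% of all genes). The co-receptor gene Lrp5 fell to 62.4 CPM in Dup-L, against 144 CPM in WT (log2 fold change -1.21, SE 0.17, adjusted p = 0.00138), and with the offsets was still lower (-0.67, adjusted p = 0.0149). The other genes of largest change, Sost and Notum, secreted inhibitors, Wnt6, an ectodermal ligand, Celsr1, a planar polarity cadherin, and Apc2, a homolog of the beta-catenin regulator Apc, had log2 fold changes of -1.59 to -1.01 and passed only without the offsets. Dup-LΔBor against Dup-L gave 28 higher and 12 lower of 96 (41.7%, beside 43.6% of all genes), and 9 and 20 with the offsets, where 28.1% of all genes passed. There Sost, Lrp5, Notum, Apc2 and Draxin, another secreted inhibitor, rose and Cer1, a secreted antagonist, fell, of which Lrp5 (0.84, adjusted p = 7.6e-04) and Draxin (0.75, adjusted p = 0.0329) passed with the offsets too. Dup-C and ΔBor hom had 0 of 96, and ΔBor het had Csnk1a1, a kinase that marks beta-catenin for degradation (0.42, adjusted p = 0.0475), higher and Celsr2, a planar polarity cadherin (-0.47, adjusted p = 0.0476), lower, neither past the threshold with the offsets.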

How the data were processed

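PolyA RNA of E12.5 mouse limb buds was sequenced. The deposited table of raw counts per gene holds 15 libraries, and another table of the same genes holds FPKM values made by the authors. The library scale and gene lengths of the FPKM values were not given in the sources used here. STAR, mm9, DESeq2 and bedtools 2.17.0 are named in the submitters' processing notes. How reads were counted (tool, annotation, strand) was not given in the sources used here. The labels list 17 samples; the 2 of E17.5 fingertips are not analysed here.

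Columns were matched to samples by the genotype and replicate in their names. The Dup-LΔBor columns, named R2 to R5, could not be matched to labels numbered 1 to 4 and count as unnumbered replicates, and the ΔBor hom column is named R3. The R4 and R5 headers share a library number, but their counts differed beyond sampling noise (mean chi-square per gene 25.6, near 1 under noise alone, beside 5.94 to 33.3 for the other Dup-LΔBor pairs), so both were kept.

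The counts entered edgeR 4.0.16 under R 4.3.3, with filterByExpr by group, TMM factors and the two-sided robust quasi-likelihood test, in 1 fit of 15 libraries and 6 groups with no covariate. All adjusted p-values of genes are from this test with Benjamini-Hochberg adjustment over 17655 genes (threshold 0.05), unless an alternative is named, and "rose", "fell" and "changed" are used past it. Fold changes are log2, with the SE from the F-statistic. Levels are TMM-scaled CPM, with log2 CPM on a prior count of 2. Relations over libraries were tested by 100000 permutations, two-sided, adjusted over 12 relations. Libraries were permuted freely across genotypes and batches, so these p-values treat all libraries as exchangeable. Values of r within batches or genotypes carry no test.

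Alternatives were median-ratio scaling, no filter, DESeq2 1.42.0, limma 3.58.1 on log2(FPKM + 0.1) or log2(FPKM + 1), batch or Pitx1 as a term, and offsets from GC content and transcript length (known for 91.4% of genes tested, by symbol from a GRCm38 annotation), single groups, batches or blocks, and leaving out each library. Checks within batches, without libraries low in Pitx1, within genotypes and with adjusted values of the ligand and target relations were chosen after seeing the data. The fit was tested on simulated data. The 10 genes and all lists were chosen with earlier results of these data known. Named genes are the 10, up to 6 pathway genes past the threshold per comparison by size of fold change, and the 5 closest to Axin2.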

Additional observations from a re-analysis of the deposited data

How the results depend on the processing

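Over all alternatives, 1090 values of the 10 genes were recomputed: 917 kept their direction and their side of the threshold, 52 lost the threshold, 21 gained it, 95 changed sign while past the threshold in neither fit, and 5 reversed. The reversals were Wnt5b (0.43) and Wls (-0.086) in Dup-L against WT and Wnt5b (-0.51) and Axin2 (-0.38) in Dup-LΔBor against Dup-L, all with GC and length offsets, and Wls in Dup-L against WT with the replicate block and those offsets (-0.069). In Dup-L against WT, where 3 genes passed, 2 passed with the batch as a term (Wnt3, and Axin2 at -0.49), 1 passed with GC and length offsets, 0 with Pitx1 as a covariate, 1 within the batch, 1 with only the 2 groups, 0 by limma with no filter and 0 to 2 when a library was left out. With the replicate block 1 passed (Axin2, -0.52), and with the block and offsets 0. Over all genes, 4187 of 17655 passed there with the batch as a term, 1283 with the offsets and 0 with Pitx1. It was 3036 of 17270 within the batch, 3896 of 16955 with only the 2 groups and 5171 of 24355 by limma with no filter. With the block 1436 of 17270 genes passed, and with the block and offsets 0. Same-numbered replicates did not deviate together (correlations of -0.183 to 0.098 between pairs of groups), so the numbers were not taken to pair the samples, and the block changed no count in Dup-C, ΔBor het or ΔBor hom. In Dup-LΔBor against WT, where 1 passed, 0 passed with the batch as a term, within the batch, with only the 2 groups and by limma with no filter, 3 with Pitx1 as a covariate (Dkk1, Lef1 at -0.62 and Wnt3 at -0.56), 2 by DESeq2 and 0 to 3 when a library was left out. Over all genes, 70 of 17655 passed there with the batch as a term and 66 of 16827 within the batch. It was 114 of 16636 with only the 2 groups and 202 of 24355 by limma with no filter. With Pitx1 1371 of 17655 genes passed, and by DESeq2 1656 of 16077. In Dup-LΔBor against Dup-L, where 2 passed, the counts were 1 with the batch as a term (Axin2, 0.43), 0 with Pitx1, 5 with only the 2 groups and 1 to 3 with a library left out. For any difference among the genotypes, where 1 passed, they were 4 with GC and length offsets, 3 with Pitx1, 6 by DESeq2 and 1 to 6 with a library left out. Leaving out a library gave 0 to 2 in Dup-C, 0 to 1 in ΔBor het and 0 to 0 in ΔBor hom, and the other alternatives gave 0 in each. The ranges with a library left out include fits that left 1 library in Dup-C, Dup-L or ΔBor het, for which the sections above give no call. The cause was not tested for any of these counts. Over all genes, Dup-LΔBor against Dup-L had 2298 of 17655 with the batch as a term, 1390 of 17655 with Pitx1 and 9173 of 16725 with only the 2 groups. For any difference it was 5101 of 17655 with the offsets, 6767 of 17655 with Pitx1 and 9109 of 17927 by DESeq2. In Dup-C against WT, DESeq2 gave an adjusted p to only 1734 genes. Targets minus ligands moved by less than the SD of WT (0.34) under every alternative run for it. The group differences from WT, from -0.27 in Dup-LΔBor to 0.30 in Dup-C, were themselves smaller than that SD. This check thus says little on how stable they are. In Dup-L minus WT the sign turned, from 0.10 to -0.093 with GC and length offsets. Blocks for Dup-LΔBor could not be made because its columns carry no label numbers, and no within-batch fit exists for Dup-LΔBor against Dup-L, which lie in different batches. The within-batch fit and the block for any difference among genotypes, ΔBor hom without its only library, and the E17.5 alternatives were not run. Depth limits Dkk1 most, with as few as 166 counts in a library.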
